A study of Danio rerio with 12 samples.

Results

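Zebrafish larvae exposed to T0901317 were compared directly with larvae exposed to GW3965, using 7 of the 12 arrays of the study. The members of the comparison are T0901317 replicates 1, 3 and 4 and GW3965 replicates 1 to 4. Replicate 2 of T0901317 was left out, as the authors did. All groups were pools of 30 whole larvae of the wild-type WIK strain, treated from day 4 after fertilization and collected on day 6, with the treatment renewed after 24 h. The labels give 2 mM T0901317 and 1 mM GW3965, each beside 0.1% DMSO, and the 4 DMSO arrays received 0.1% DMSO alone. The labelled doses differ, so compound and dose cannot be told apart. The doses are printed as labelled. Each group lay on 1 slide and 1 scan of its own, so the slide cannot be told apart from the treatment in any difference below.

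The liver X receptor (LXR) is a ligand-dependent transcription factor for which oxysterols are the natural ligands. It binds DNA together with the retinoid X receptor and raises genes of cholesterol efflux, lipoprotein remodelling and fatty acid synthesis, among them the gene of the transcription factor SREBP-1. Zebrafish carry 1 LXR gene, nr1h3. T0901317, a benzenesulfonamide, and GW3965, a phenylacetic acid derivative, are synthetic LXR agonists. In mammalian cells T0901317 also activates the pregnane X receptor (PXR), which controls genes of drug metabolism. A direct comparison of these agonists shows which transcripts differed between larvae that both received an LXR agonist.

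Signals are log2 processed intensities relative to the 75th percentile of each array, so 0 marks that percentile. Differences are T0901317 minus GW3965 on the log2 scale ± the standard error (SE) from limma, n = 3 against 4 unless stated. A gene was tested if at least 1 of its probes was well above background on all 7 agonist arrays, and the brightest such probe was read. It was called at a Benjamini-Hochberg adjusted p under 0.05. The 75th percentile lay between 328 and 388 intensity units over the 12 arrays. On the 11 arrays used, 78.7% to 83.1% of probes were well above background. Arrays of 1 group correlated across genes at 0.991 to 0.997. The array left out had 89.7% of its probes above background and correlated at 0.966 to 0.971 with the others of its group. RNA came from whole larvae, so fewer cells of a type and less RNA per cell cannot be told apart.

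Of 21266 genes tested, 946 differed between the agonists, which is 4.45%. The split was uneven, with 918 genes (4.32%) higher and 28 genes (0.132%) lower under T0901317. Of 11508 genes tested with a symbol, 313 were called, 296 higher and 17 lower. The gene lists below hold only genes with a symbol, while the shares beside them are over all genes tested, unnamed ones included. Lists and members were chosen with earlier results of these data known, so counts over a list describe it and are no test. At least 2-fold differences were found for 353 of the 918 higher and 4 of the 28 lower calls. The median difference over all genes tested was -0.0010, over the higher calls 0.84 and over the lower calls -0.56. Leaving out T0901317 replicate 1 left 626 calls, of which 12 were lower. Leaving out GW3965 replicate 3 left 17 lower calls, and leaving out the arrays of replicate number 4 in all groups left 591 calls, 576 higher and 15 lower. With the replicate number as a block, 982 genes were called higher and 53 lower. Quantile normalization gave 667 and 65, and scaling to the median of bright probes gave 802 and 45.

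Higher and lower calls differed in signal strength. Of the higher calls, 786 had a mean signal at or below the median of all genes tested and 132 a signal above it. Of the 5317 genes with the strongest signal, 19 were higher calls and 9 were lower calls. The lower calls showed 18 genes above the median and 10 at or below it. Over the higher calls, the median signal was -2.29 on the T0901317 arrays, -3.24 on the GW3965 arrays and -2.73 on the DMSO arrays. By array it ran from -2.40 to -2.20 with T0901317, from -3.30 to -3.17 with GW3965 and from -2.88 to -2.63 with DMSO. These genes were selected for their difference, so those medians describe them and are no test.

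**Figure D1:**
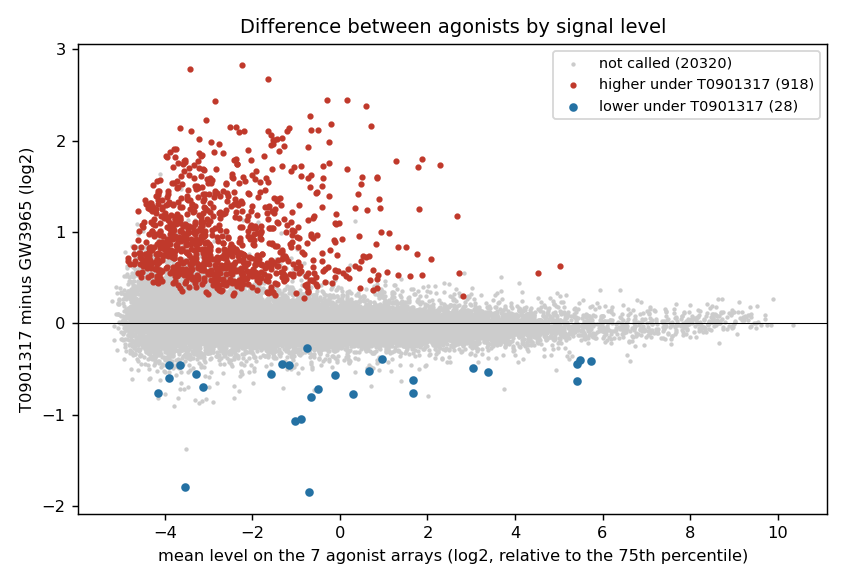
Difference between the agonists (vertical axis, log2, T0901317 minus GW3965) against the mean signal on the 7 agonist arrays (horizontal axis, log2 relative to the 75th percentile), with 1 point per gene tested. Red points, the 918 genes called higher under T0901317, lie mostly at low signal, and blue points, the 28 genes called lower, are spread over the range.

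Most LXR targets, like most genes tested, did not pass the test between the agonists. The transcript of nr1h3 read 0.30, 0.23 and 0.16 on the T0901317 arrays and 0.08, 0.36, 0.15 and 0.30 on the GW3965 arrays. These ranges overlapped, and the difference was 0.0067 ± 0.09 with a 95% interval from -0.20 to 0.21, and -0.034 when arrays were scaled to the median of bright probes. Against DMSO, nr1h3 was 0.49 ± 0.09 higher under either agonist.

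Of 15 measured LXR targets, 1 was higher (srebf1), 1 was lower (apoea) and 13 were not called, with a list median of 0.0067. Over all genes tested, 4.45% were called. An unadjusted p under 0.05 was found for 4 of the 15 targets, against 12.2% of all genes tested. Among 16 partners and sterol sensors, such as the retinoid X receptors, srebf1 was the single call. The phospholipid transfer protein gene pltp read 2.65, 2.72 and 3.23 with T0901317 and 2.25, 2.27, 2.45 and 2.99 with GW3965, a difference of 0.38 ± 0.18 (interval -0.02 to 0.78, adjusted p 0.449). Beside DMSO, pltp stood 3.25 and 2.88 higher in T0901317 and GW3965 larvae. The stearoyl-CoA desaturase gene scd, which makes monounsaturated fatty acids, differed by 0.48 ± 0.22 (0.00 to 0.95, adjusted p 0.408) and was called with the replicate block on the 7 agonist arrays (0.50, adjusted p 0.0196).

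Other targets lay nearer to 0. The difference was 0.09 for abcg1, a sterol exporter, -0.07 for the endothelial lipase gene lipg and -0.01 for mylipa, which directs degradation of the low-density lipoprotein receptor. For fads2, a fatty acid desaturase that is not on the target list and was picked after its values were seen, the difference was 0.18 ± 0.11 (-0.07 to 0.42). Its DMSO comparisons were 4.14 and 3.96. A missed threshold does not show that the agonists acted alike, and the intervals give the range of differences these 7 arrays leave.

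The LXR target called higher was srebf1, which encodes SREBP-1. It read -0.89, -1.26 and -0.99 with T0901317, -1.63, -1.53, -1.79 and -1.77 with GW3965 and -2.04, -2.50, -2.51 and -2.24 with DMSO. The 3 groups did not overlap, and T0901317 larvae were 1.55-fold above GW3965 larvae (0.63 ± 0.13, adjusted p 0.0155). Compared with DMSO, srebf1 was 1.27 ± 0.13 higher with T0901317 and 0.64 ± 0.12 higher with GW3965. A second, dimmer probe of srebf1 gave 0.05 ± 0.32 (-0.65 to 0.76), and the mean over both probes was not called (0.34, adjusted p 0.509). The call was also lost without T0901317 replicate 1 (adjusted p 0.0983), T0901317 replicate 4 (0.0635), GW3965 replicate 3 (0.0521) or replicate number 4 in all groups (0.179).

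Most enzymes of cholesterol synthesis had slightly higher signals with T0901317, and few single genes passed the test. Of 21 measured, 19 had a positive difference and the list median was 0.26, beside -0.0010 over all genes. Only sc5d, which acts late in the pathway, was called, against 4.45% of all genes tested. An unadjusted p under 0.05 was found for 10 of the 21, against 12.2% of all genes tested. In 12 of the 21 genes all T0901317 arrays lay above all GW3965 arrays, and in none below, while 8.96% of all genes tested showed that order. The list median was 0.15 after normexp background correction. Its median beside DMSO was 0.74 with T0901317 and 0.52 with GW3965.

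The sc5d transcript read 0.97, 1.02 and 0.89 with T0901317, 0.68, 0.38, 0.52 and 0.35 with GW3965 and -0.38, -0.65, -0.32 and -0.65 with DMSO. All T0901317 values exceeded all GW3965 values, and the difference was 0.48 ± 0.11 (adjusted p 0.0284). Its second probe differed by 0.51 ± 0.14 (adjusted p 0.0719). Leaving out any single agonist array except GW3965 replicate 1 ended the call of sc5d, with adjusted p up to 0.115, as did leaving out replicate number 4 (0.133), normexp correction (0.0578) and putting back T0901317 replicate 2 (0.0593).

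Uncalled members with the smallest p were msmo1 (0.42 ± 0.13), hsd17b7 (0.42 ± 0.14) and cyp51 (0.60 ± 0.21, adjusted p 0.191), all enzymes downstream of lanosterol or acting on it. The arrays of the agonists did not overlap for any of these genes. With the replicate block on the 7 agonist arrays, cyp51 (0.43, adjusted p 0.0349) and hsd17b7 (0.41, adjusted p 0.0396) were called. The difference was 0.34 for hmgcra, which encodes the rate-limiting reductase, and 0.49 for the squalene epoxidase gene sqlea. Neither was called.

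**Figure D2:**
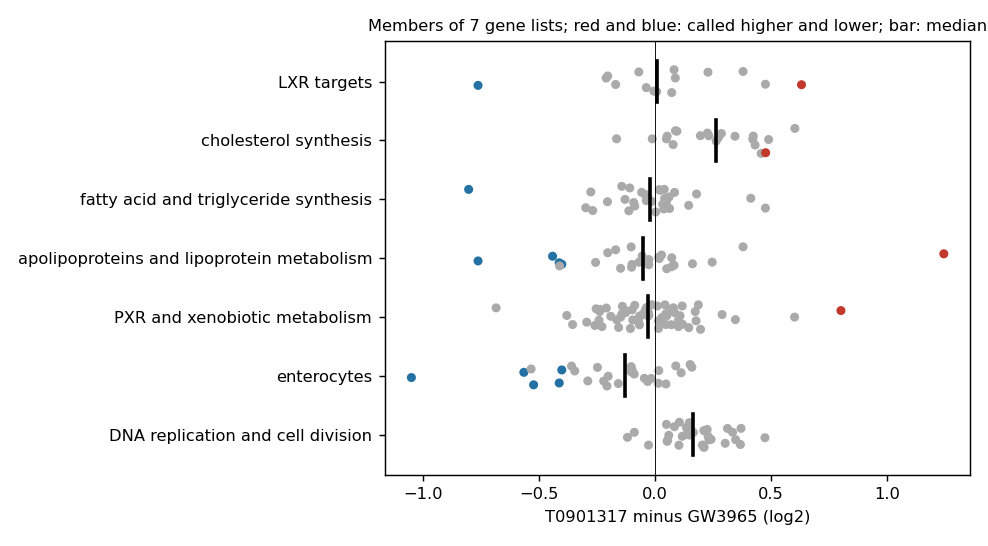
Difference between the agonists (horizontal axis, log2, T0901317 minus GW3965) for each measured member of 7 gene lists, 1 point per gene, with vertical jitter only to separate points. Red and blue mark genes called higher and lower under T0901317, and black bars mark list medians, 0.26 for cholesterol synthesis, -0.13 for enterocytes and 0.16 for DNA replication and cell division.

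Genes lower under T0901317 included apolipoproteins and products of the intestine. Apolipoproteins are the protein shell of lipoprotein particles, and in larvae of this age they are made mainly in the liver, the intestine and the yolk syncytial layer. Of 28 measured genes of apolipoproteins and lipoprotein metabolism, 4 were lower (apoea, apobb.1, apoa4b.1 and apoa4b.2) and fabp4b was higher. Over all genes tested, 0.132% were called lower and 4.32% higher. The list median was -0.05.

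The apolipoprotein E gene apoea had the smallest adjusted p of the named lower genes. It read 1.17, 1.29 and 1.27 with T0901317, 1.94, 2.08, 1.86 and 2.14 with GW3965 and 2.85, 2.75, 2.76 and 2.80 with DMSO. The 3 groups were separate, with T0901317 larvae 1.70-fold below GW3965 larvae (-0.76 ± 0.08, adjusted p 0.000185). Both agonist groups lay below DMSO, by -1.55 ± 0.08 with T0901317 and -0.78 ± 0.08 with GW3965. The call held in all 24 alternative fits. For apoeb, the other apolipoprotein E gene, the difference was -0.20 ± 0.09 (adjusted p 0.396), and over the mean of its probes it turned to 0.08. Of its 7 other probes, 1 gave 0.94 ± 1.58 and the rest lay between -0.09 and 0.02.

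Transcripts of apolipoprotein A-IV, a component of chylomicrons, were lower for the neighbouring paralogs apoa4b.1 and apoa4b.2. On the T0901317 arrays apoa4b.2 read 5.12, 5.19 and 5.19, and on the GW3965 arrays 5.59, 5.64, 5.57 and 5.62. The arrays did not overlap, and the difference was -0.44 ± 0.07 (adjusted p 0.00314). A second probe gave -0.50 ± 0.12 (adjusted p 0.0320). For apoa4b.1 the chosen probe gave -0.40 ± 0.08 (adjusted p 0.0144) and the other -0.50 ± 0.13. Signals of these paralogs may share transcripts, so they are uncertain as separate results. The call of apoa4b.1 was lost without T0901317 replicate 1 (adjusted p 0.0920) and with the replicate block on the 7 agonist arrays (0.0688), and both were lost without replicate number 4 (0.147 and 0.0549). The related apoa4a differed by 0.25 ± 0.09 in the other direction and was not called.

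The apolipoprotein B gene apobb.1 read 5.54, 5.71 and 5.26 with T0901317 and 5.96, 5.91, 5.96 and 5.85 with GW3965. Its difference of -0.41 ± 0.10 (adjusted p 0.0449) passed only narrowly. The call was lost in 15 of 24 alternative fits, with adjusted p from 0.0513 to 0.209, among them those leaving out DMSO replicates 2, 3 or 4, T0901317 replicates 1 or 4, or any GW3965 array. With the replicate block on the 7 agonist arrays the adjusted p was 0.0723. In all of these fits the value stayed below 0.

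Among 28 measured enterocyte genes, 5 were lower, none was higher and the median was -0.13. Over all genes tested, 0.132% were called lower and 4.32% higher. In 8 of the 28 all T0901317 arrays lay below all GW3965 arrays, an order that 4.88% of all genes tested showed. These 8 include the acidic chitinase genes chia.1, chia.2, chia.3 and chia.5, paralogs that may share signal. They also include apobb.1 and apoa4b.1, which are counted in the apolipoprotein list too. The list was chosen with earlier results of these data known, so its counts describe it and are no test. Beside DMSO the list median was -0.36 with T0901317 and -0.13 with GW3965. The 5 called members were apobb.1 and apoa4b.1, the acidic chitinase gene chia.3, the intestinal alkaline phosphatase gene alpi.2 and mep1ba, which encodes a metalloprotease of the brush border. Of the 28, 7 had a positive difference, against 49.7% of all genes tested, and the largest was 0.16. An unadjusted p under 0.05 was found for 10, against 12.2%. The 49.7% depends on the scaling and was 41.5% after quantile normalization and 39.4% with bright-median scaling. Some uncalled members lay near 0, such as villin (vil1, 0.05), fabp2 (-0.10) and mttp (0.02), which loads lipid onto apolipoprotein B. Others were lower, such as rbp2b (-0.36) and anpepb.1 (-0.29).

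Acidic chitinases digest chitin in the gut. The chia.3 transcript read -1.75, -1.33 and -1.40 with T0901317, -0.62, -0.50, -0.82 and 0.16 with GW3965 and -0.10, -0.46, 0.03 and 0.36 with DMSO. T0901317 larvae were 2.07-fold below GW3965 larvae (-1.05 ± 0.23, adjusted p 0.0211), without overlap. For chia.6, which stood on none of the gene lists and was named for its size, the difference was -0.78 ± 0.15 (adjusted p 0.00845).

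The second probes followed, with -0.74 ± 0.19 for chia.3 and -0.63 ± 0.19 for chia.6, although neither passed on its own (adjusted p 0.0564 and 0.140). Of the other chitinase genes, chia.1 (-0.35), chia.2 (-0.25) and chia.5 (-0.53, adjusted p 0.0595) were not called. Without T0901317 replicate 1 both calls were lost (adjusted p 0.126 for chia.3 and 0.0568 for chia.6). The call of chia.3 was lost without T0901317 replicate 4 (0.0524), and that of chia.6 without replicate number 4 (0.0772).

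The alkaline phosphatase gene alpi.2 read -0.55, -0.47 and -0.31 with T0901317, 0.27, 0.06, 0.04 and 0.13 with GW3965 and 0.35, -0.04, 0.09 and 0.42 with DMSO. GW3965 and DMSO larvae overlapped, and T0901317 larvae lay below both (-0.56 ± 0.12 against GW3965, adjusted p 0.0151). A second, dimmer probe gave -0.38 ± 0.20 (-0.82 to 0.06, adjusted p 0.548). The call of alpi.2 was lost without T0901317 replicate 1 (0.0908) or 3 (0.0526). A similar order was seen for mep1ba, with 0.26, 0.56 and 0.29 on the T0901317 arrays and 0.85, 0.74, 0.96 and 1.01 on the GW3965 arrays (-0.52 ± 0.12, adjusted p 0.0302). That call was lost in 7 alternative fits: after normexp correction, without T0901317 replicate 1 or 4, without GW3965 replicate 1, 3 or 4, and without replicate number 4.

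The largest difference in this direction was that of crp6, a member of the C-reactive protein family of acute phase proteins. It read -1.84, -0.91 and -2.53 with T0901317, 0.28, 0.21, 0.48 and -0.59 with GW3965 and 0.66, 0.33, 0.63 and 0.19 with DMSO. T0901317 larvae were 3.61-fold below GW3965 larvae (-1.85 ± 0.33, adjusted p 0.00564), and the call held in all 24 alternative fits. The GW3965 larvae differed from DMSO by -0.36 ± 0.31. Of 20 measured acute phase and inflammation genes, only crp6 was called, and the list median was -0.12. Over all genes tested, 4.45% were called.

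The gene rnasel4, of the secreted ribonuclease family, read -1.19, -0.83 and -0.72 with T0901317 and -0.17, -0.22, -0.23 and -0.15 with GW3965, a difference of -0.72 ± 0.14 (adjusted p 0.00801) that was called in all alternative fits. The lipid droplet gene cidec showed another order. T0901317 larvae (-1.46, -1.05 and -0.87) overlapped DMSO larvae (-0.94, -1.11, -1.61 and -0.68), and GW3965 larvae were above both (-0.52, -0.14, -0.34 and -0.30). The difference was -0.80 ± 0.20 (adjusted p 0.0405), and a second probe gave -0.67 ± 0.16 (adjusted p 0.0339). The cidec call was lost in 10 alternative fits, among them those without DMSO replicate 1 or 2, T0901317 replicate 1 or 3, or any GW3965 array, with adjusted p up to 0.222.

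The cerebellin gene cbln8, of a family of secreted synaptic organizers, read -4.63, -4.05 and -5.01 with T0901317 and -2.99, -1.99, -2.93 and -3.16 with GW3965. It differed by -1.80 ± 0.31 (adjusted p 0.00418), and its second probe by -1.37 ± 0.28 (adjusted p 0.0170). Both probes were dim. The difference shrank to -0.55 after normexp correction (adjusted p 0.0665), and with T0901317 replicate 2 put back it was -1.27 (adjusted p 0.240), since that array read -2.45.

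Smaller lower calls were the serine protease gene prss60.2 (-0.46 ± 0.08), the glucuronosyltransferase gene ugt5a2 (-0.56 ± 0.13), the proteasome subunit gene psmd1 (-0.54 ± 0.11), the immediate early gene egr4 (-0.62 ± 0.16) and the helicase gene dhx34. The call of ugt5a2 was lost in 10 alternative fits, with adjusted p up to 0.273, the value without replicate number 4 in all groups. Others were those without T0901317 replicate 1 or 4 or any GW3965 array. The call was also lost with the replicate block on the 7 agonist arrays (0.0644). That of egr4 was lost in 14, among them those without DMSO replicate 1, 2 or 4, T0901317 replicate 1 or 3, or any GW3965 array (up to 0.152). That of psmd1 was lost in 5, including those without T0901317 replicate 3 or 4 or GW3965 replicate 3 and that with the block on the 7 agonist arrays (0.0891), and that of prss60.2 only without replicate number 4 (adjusted p 0.0560). Other probes gave -0.37 for prss60.2, -0.51 for ugt5a2 and -0.16 and -0.30 for psmd1, of which only that of prss60.2 was called. For dhx34 (-0.27), the remaining lower gene with a symbol and outside the rule for named genes, a second probe had the opposite sign.

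**Figure D3:**
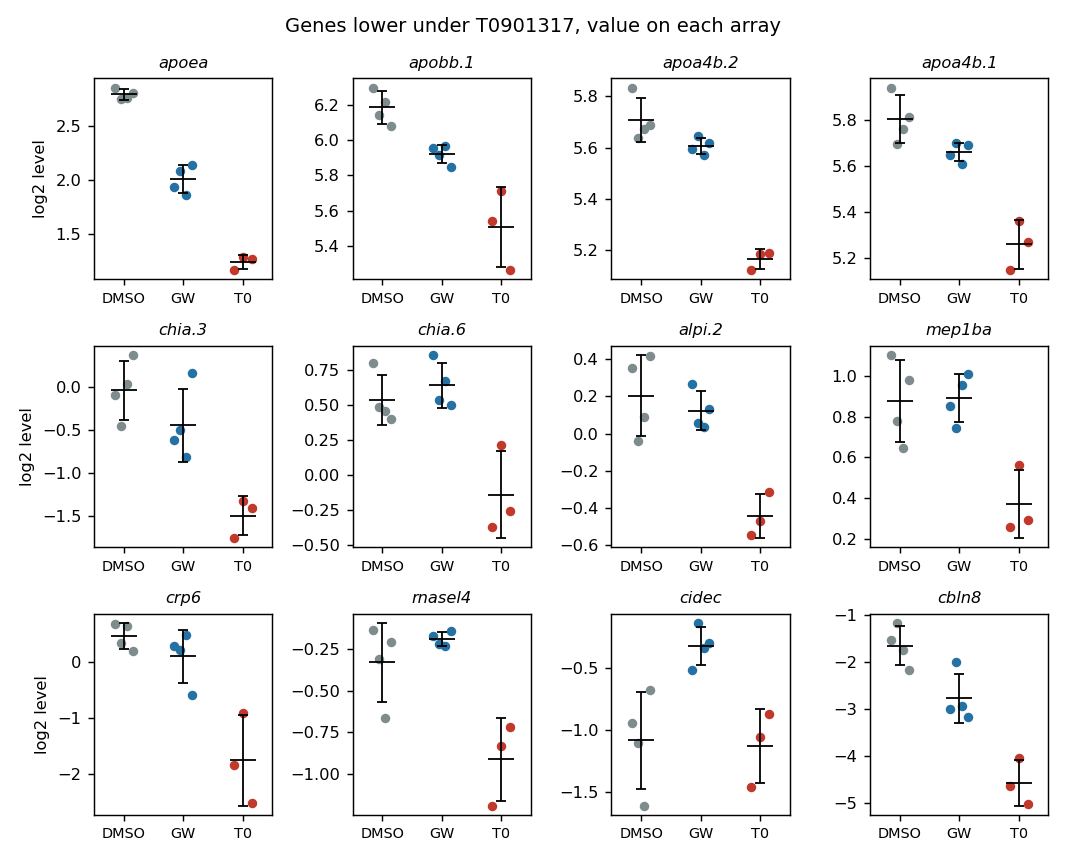
Signal (vertical axes, log2 relative to the 75th percentile, each panel with its own range) on every array for 12 genes lower under T0901317, by group (4 DMSO, 4 GW3965 and 3 T0901317 arrays), with mean and SD in black. The T0901317 arrays lie below all GW3965 arrays in every panel, and for cidec they share the range of the DMSO arrays.

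Many genes are represented by more than 1 probe, which gives a second measurement within the same samples. Of the 28 lower calls, 11 had another probe above background on all 7 arrays. In 10 of these 11 all other probes had the same sign, the exception being dhx34, and in 4 another probe of that sign was called. The median difference was -0.56 for the chosen probes and -0.50 for the others. Of the 918 higher calls, 105 had another such probe. In 62 of them all other probes shared the sign, and in 10 another probe was called. Here the median difference was 0.75 for the chosen probes and 0.08 for the others. For comparison, all other probes shared the sign in 3400 of the 6387 genes with more than 1 probe. Another probe of the same sign was called in 121 of the 6387. Choosing genes by 1 probe favours that probe in either direction, so the shift from chosen to other probes is a description.

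**Figure D4:**
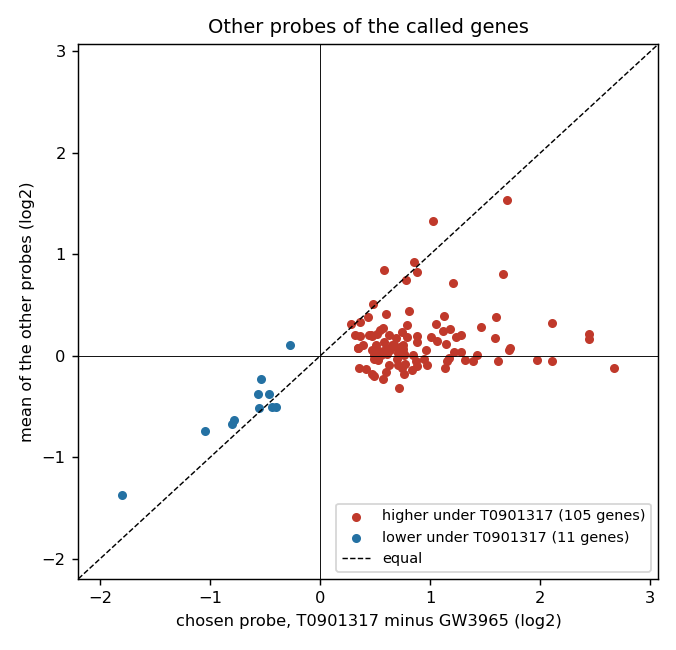
Difference between the agonists by the chosen probe (horizontal axis, log2) and by the mean of the other probes of the same gene (vertical axis, log2), for called genes with another probe above background. Of the 11 genes called lower, 10 lie below 0 on both axes, and most of the 105 genes called higher lie near 0 on the vertical axis.

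Among the genes with a symbol, the 15 largest rises over GW3965 ran from 1.87 to 2.83, that is 3.65-fold to 7.09-fold. They included angpt2b, jac9, pkp2, ftr86, ext1a, eef1a1l3, zgc:114123, jac8, crygs3, si:dkey-239i20.4, ehmt2, lingo4a, foxl2l and eif2ak2. All but 1 of these calls held in all 24 alternative fits. The exception was pkp2, whose chosen probe changes when a T0901317 array is left out. Of the 15, 6 had other probes above background, and none of those 10 probes was called. The range of their differences was -0.24 to 0.64.

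The vascular ligand gene angpt2b (angiopoietin 2) read -0.85, -0.53 and -0.48 with T0901317, -3.40, -4.00, -3.38 and -3.003 with GW3965 and -1.90, -1.83, -1.23 and -1.18 with DMSO. The difference of 2.83 ± 0.23 (adjusted p 3.37e-05) was the largest of all genes tested, and DMSO larvae lay between the agonists. It has 1 probe, and the difference was 1.68 after normexp correction. Of 16 measured endothelial genes, angpt2b and plvapa (0.47) were called, the latter with a second probe at -0.18, and the list median was 0.01. Over all genes tested, 4.32% were called higher.

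The desmosome gene pkp2 (plakophilin 2) read 0.12, -0.41 and -0.06 with T0901317, -2.53, -2.86, -3.08 and -2.69 with GW3965 and -0.45, -1.17, -0.88 and -0.28 with DMSO. The chosen probe differed by 2.67 ± 0.21, while its other probe differed by -0.12 ± 0.10. The heparan sulfate polymerase gene ext1a differed by 2.44 ± 0.13, its other probes by 0.15 ± 0.13 and 0.19 ± 0.10. Disagreement between probes of this kind was also found for ehmt2, a histone H3 lysine methyltransferase (2.103 against 0.13 and -0.24), for otop1, a proton channel of the otolith-forming ear (1.62 against -0.05) and for ftr86, a member of the fish TRIM family (2.45 against 0.15, -0.14 and 0.64). The probes may read different parts of a transcript, and which of them tracks the gene was not tested.

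In 33 genes called at least 2-fold higher that had other probes, the median difference was 1.32 by the chosen probe and 0.17 by the others. All other probes were under 0.5 in 25 of the 33, and another probe was called in 6. The clearest agreement was that of adm2a, which encodes the vasoactive peptide adrenomedullin 2 and was singled out after its values were seen. It read -2.15, -2.32 and -2.25 with T0901317, -3.72, -3.87, -3.83 and -4.33 with GW3965 and -3.49, -3.74, -3.34 and -3.64 with DMSO. T0901317 larvae were above both of the other groups (1.70 ± 0.14 against GW3965, adjusted p 3.37e-05), and both other probes were called, the stronger with 1.82 ± 0.18. The remaining genes with another called probe were lrit1b (1.66), adcy8 (1.59), spns3 (1.21), tfpia (1.18), wfikkn1 (1.03), tmem117 (0.86), ipp (0.81), cyp11c1 (0.78) and zglp1 (0.58). Not all of their probes agreed. The sign was shared by 2 of the 3 other probes of lrit1b and 1 of the 2 of tfpia. The called other probe of adcy8 gave 0.66.

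Among the genes with another called probe, cyp11c1 encodes the steroid 11-beta-hydroxylase, which makes cortisol and 11-oxygenated androgens in zebrafish. It read -0.17, -0.37 and -0.76 with T0901317, -1.28, -1.09, -1.11 and -1.36 with GW3965 and -0.62, -0.95, -0.72 and -0.66 with DMSO. The agonists did not overlap, and DMSO larvae shared part of the T0901317 range. The difference was 0.78 ± 0.14 (adjusted p 0.00483), its second probe gave 0.74 ± 0.13 (adjusted p 0.00622), and the call held in all alternative fits. Of 24 measured glucocorticoid and steroid genes, 3 were called: cyp11c1, per1a and the vitellogenin gene vtg5 (1.73). All 3 were higher, as were 918 of the 946 calls over all genes. Over all genes tested, 4.32% were called higher. The list median was -0.0018.

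The jacalin lectin genes jac8 and jac9, which encode carbohydrate-binding proteins, separated T0901317 larvae from both other groups. The jac9 signal was -2.13, -1.18 and -2.16 with T0901317, -4.23, -5.28, -4.91 and -4.01 with GW3965 and -4.78, -4.55, -4.02 and -4.21 with DMSO. GW3965 and DMSO larvae overlapped (-0.22 ± 0.30), and T0901317 larvae were 6.89-fold above GW3965 larvae (2.79 ± 0.32). The jac8 signal was -1.52, -0.80 and -1.52 against -3.29, -3.59, -3.96 and -2.87, a difference of 2.15 ± 0.25, and GW3965 larvae were again close to DMSO larvae (-0.31 ± 0.23). For jac7, named after its values were seen, the agonists differed by 1.56 ± 0.18. Its order was not that of jac8 and jac9: T0901317 stood 0.24 ± 0.18 above DMSO and GW3965 1.32 below (-1.32 ± 0.17). Paralogs of this family may share signal. Both jac9 and jac8 were dim on the GW3965 arrays, so the size of their differences is uncertain. After normexp correction jac9 differed by 1.15 and jac8 by 1.02, both still called.

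The fatty acid binding protein gene fabp4b rose above DMSO in both agonist groups and further with T0901317. It read 1.26, 1.14 and 1.58 with T0901317, -0.44, 0.51, -0.14 and 0.40 with GW3965 and -1.65, -1.68, -1.20 and -1.69 with DMSO. All 3 groups were separate, with a 2.37-fold difference between agonists (1.24 ± 0.22). The DMSO comparisons were 2.88 ± 0.22 and 1.63 ± 0.20, and the call between agonists held in all 24 alternative fits.

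Gamma crystallins are structural proteins of the lens. Of 53 lens crystallin genes, 5 were higher (crygs3, crygm3, crygs2, crygm2c and crygm2b), none was lower and the median was -0.02, beside 4.32% called higher over all genes. Among the 11508 genes with a symbol, 296 were called higher. The crygs2 signal was -1.85, -1.98 and -1.96 with T0901317, -2.47, -2.77, -3.09 and -2.53 with GW3965 and -5.52, -4.83, -5.19 and -5.02 with DMSO. Both agonist groups were far above DMSO, where crygs2 was well above background on 3 of the 4 arrays. The size of that distance is therefore uncertain. The agonist groups differed from each other by 0.78 ± 0.17. The related crygs3 was placed differently, at 0.75, 0.47 and 0.92 with T0901317, -1.47, -1.17, -1.49 and -1.51 with GW3965 and -0.36, -0.56, -0.09 and -0.49 with DMSO. DMSO larvae lay between the agonists, whose difference was 2.12 ± 0.14. The call of crygs2 was lost in 6 alternative fits, after quantile normalization (adjusted p 0.0690), without T0901317 replicate 1, 3 or 4 (up to 0.102), without GW3965 replicate 2 (0.0544) and without replicate number 4 (0.0968). After normexp correction its difference was 0.43.

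The period genes of the circadian clock repress their own transcription in a daily cycle. Of 35 measured clock genes, per1a and per3 were called, both higher, while per1b (0.07) and per2 (-0.06) were not. Over all genes tested, 4.32% were called higher. The per1a signal was 3.71, 2.84 and 3.29 with T0901317, 1.73, 1.62, 1.33 and 1.49 with GW3965 and 3.17, 2.23, 2.37 and 2.78 with DMSO. T0901317 and DMSO larvae overlapped, and GW3965 larvae were below both, with a difference between agonists of 1.74 ± 0.23. For per3 the chosen probe differed by 0.97 ± 0.11 and its other probe by -0.09 ± 0.14, and the mean over both was not called (0.44, adjusted p 0.0566). The list median was -0.04, and collection times of the pools are not given in the sources used here.

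**Figure D5:**
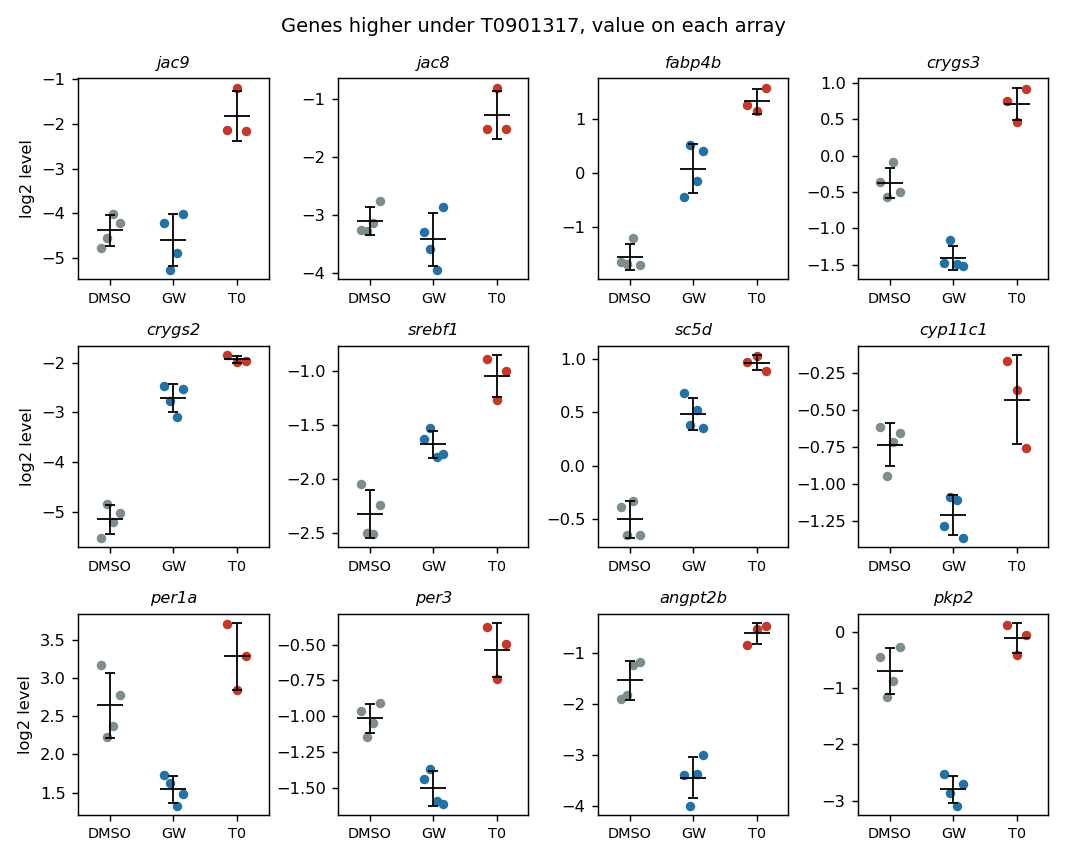
Signal (vertical axes, log2 relative to the 75th percentile, each panel with its own range) on every array for 12 genes higher under T0901317, by group (4 DMSO, 4 GW3965 and 3 T0901317 arrays), with mean and SD in black. For jac8 and jac9 the GW3965 arrays overlap the DMSO arrays, for fabp4b, srebf1 and sc5d they lie above it, and for angpt2b and pkp2 below it.

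Few genes of drug metabolism were called between the agonists. Of 63 measured genes of PXR and xenobiotic metabolism, ugt2a2 was called higher, none was called lower and the median was -0.03. The glucuronosyltransferase gene ugt5a2, called lower (-0.56), was not on this list. Over all genes tested, 4.45% were called. An unadjusted p under 0.05 was found for 6 of the 63, against 12.2% of all genes tested. Activation of PXR was not tested. The cytochrome P450 gene cyp3a65, a PXR target in zebrafish, read 3.37, 3.65 and 3.05 with T0901317, 3.83, 3.58, 3.79 and 3.75 with GW3965 and 3.72, 3.52, 3.56 and 3.31 with DMSO. All 3 groups overlapped, with a difference of -0.38 ± 0.14 between agonists (-0.68 to -0.08, adjusted p 0.231). The glucuronosyltransferase gene ugt2a2 differed by 0.80 ± 0.13 and by 0.32 after normexp correction, where it was no longer called (adjusted p 0.0581). For cyp2k19 the difference was -0.68 ± 0.23 (adjusted p 0.182), called with the replicate block (adjusted p 0.00702), while its other probes gave -0.56, -0.14 and 0.01. That of cyp2k18 was 0.60 ± 0.22 (adjusted p 0.230), and it was called with the block on the 7 agonist arrays (0.71, adjusted p 0.0395).

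Other lipid lists gave few calls. In fatty acid and triglyceride synthesis, 1 of 32 genes was lower (cidec) and the median was -0.02. The elongase gene elovl2 read 2.25, 2.42 and 2.08 with T0901317 and 2.06, 1.61, 1.77 and 1.91 with GW3965, a difference of 0.41 ± 0.13 without a call, beside 2.03 and 1.62 against DMSO. No gene was called among 10 of cholesterol uptake and efflux, 29 of fatty acid oxidation and 15 of bile acid synthesis and transport. Their medians were 0.04, -0.04 and -0.03, and 1, 1 and 0 genes had an unadjusted p under 0.05. Over all genes tested, 4.45% were called and 12.2% had such a p, so lists of this size would hold few calls. In the bile acid list, slc27a2a differed by 0.15 ± 0.12, while a second, dimmer probe of it passed the test (0.90 ± 0.17, adjusted p 0.0109). By the same limma test 0 of 22 hepatocyte markers (median 0.04) and 0 of 23 exocrine pancreas markers (median -0.08) were called, and none of either list had an unadjusted p under 0.05.

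No gene of DNA replication and cell division was called by limma, and 3 had an unadjusted p under 0.05. Over all genes tested, these shares were 4.45% and 12.2%. Of 33 measured, 30 had a positive difference, against 49.7% of all genes tested. All T0901317 arrays lay above all GW3965 arrays in 7, against 8.96% of all genes, and the median was 0.16. Members ran from -0.12 for ccng1 to 0.47 for the thymidine kinase gene tk1, with 0.35 for the replication helicase gene mcm5 and 0.06 for pcna, the sliding clamp. Leaving out GW3965 replicate 4 brought the list median to 0.06. Beside DMSO it was 0.09 with T0901317 and -0.05 with GW3965.

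Markers of the remaining cell types contributed few calls each. Over all genes tested, 4.32% were called higher and 0.132% lower. Among 16 red blood cell genes the globin hbba2 (1.11) and the transferrin receptor gene tfr1a (0.65) were higher and the median was 0.15. Both calls were lost without T0901317 replicate 1 (adjusted p 0.0938 and 0.151) or without replicate number 4 (0.0665 and 0.0801), and that of tfr1a in 10 alternative fits in all, among them those without T0901317 replicate 4 or GW3965 replicate 1, 3 or 4. A second probe of hbba2 gave 0.25 ± 0.36, and the mean over both was not called (0.68, adjusted p 0.276). The median was -0.06 over 14 neutrophil genes, with 6 positive, and -0.05 over 23 macrophage genes, with 7 positive. An unadjusted p under 0.05 was found for 2 and 4 of them. In the neutrophil list cybb (0.76), which encodes a subunit of the phagocyte oxidase, was higher with a second probe at -0.18. The call of spi1b (0.31), the PU.1 gene of myeloid cells, was not kept with the replicate block (adjusted p 0.0514) and was lost in 14 alternative fits, among them those without T0901317 replicate 1 or 4 or GW3965 replicate 1, 2 or 3. Photoreceptor and visual cycle genes had a median of -0.14 over 53 genes, with 7 positive, against 49.7% of all genes tested. An unadjusted p under 0.05 was found for 9, against 12.2%. All T0901317 arrays lay below all GW3965 arrays in 6 and above them in 4, against 4.88% and 8.96% of all genes. The single call of this list, guca1ab.1 (0.57), was lost after normexp correction, where the difference was 0.15, and without replicate number 4 (adjusted p 0.0643). Skeletal muscle (41 genes, none called and 2 at an unadjusted p under 0.05, median 0.06), neurons and glia (36, with cbln8 lower), epidermis and keratins (34, with pkp2 higher) and bone and matrix (33, with otop1 higher, median 0.12) completed the cell type lists. The share called was 4.45% over all genes tested, and 313 of 11508 with a symbol were called. Respiratory chain (46 genes), unfolded protein response (34) and gluconeogenesis (26) held no called gene. In each of them 2 genes had an unadjusted p under 0.05, against 12.2% of all genes tested. The oxidative stress list of 26 genes held ftr86 as its only call, which is not a stress gene by annotation.

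Some genes were above background in only 1 agonist group. With a filter of at least 3 of the 7 arrays, 1246 of 23111 genes were called (5.39%). Of these, 22 genes with a symbol were well above background on every T0901317 array and not well above background on any GW3965 array. The reverse was found for 0 genes with a symbol. The sodium and myo-inositol transporter gene slc5a3a was at least 3.13-fold higher, tas2r203 at least 3.04-fold and tmem144b at least 2.57-fold. On the DMSO arrays slc5a3a and tmem144b were well above background on all 4 and tas2r203 on 3, while zgc:174862, another of the 22, was on 0. All 22 genes passed the filter only through the T0901317 arrays, so their calls and bounds describe them and are no test. These bounds set the mean of the T0901317 arrays against the lowest signal above background on each GW3965 array, or the gene's own signal where higher. The GW3965 arrays had 78.7% to 82.0% of their probes above background, the T0901317 arrays used 81.6% to 82.2%. None of the 22 had another probe that was above background on all 7 arrays.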

How the data were processed

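RNA of 12 larval pools was hybridised to 1-colour Agilent arrays. Per the file headers, spot extraction by the authors used Agilent Feature Extraction 11.0.1.1. The deposited values are its background-subtracted processed signals, a linear intensity that is not scaled between arrays. The deposited series table held the same values (largest log2 difference 0). Groups and replicate numbers were taken per the labels. Flagged spots were left out and repeated spots averaged, giving 43603 probes. RefSeq accessions named 25069 of them (12858 genes, table of assembly GRCz12tu, names only), and 18534 stayed unnamed. The array design is of build Zv8.

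Signals were log2 transformed and scaled to the 75th percentile of each array, with each gene read from its brightest probe among those that passed the background filter. The model, in limma 3.58.1 under R 4.3.3, had 1 mean per group over 11 arrays, of which the DMSO arrays served to estimate the spread and to give differences from DMSO (8 residual and 3.65 prior degrees of freedom, two-sided tests). Adjusted p values are Benjamini-Hochberg over 21266 genes, and intervals cover 95%. The fit was run on simulated data with independent arrays. Those data hold no replicate pairing and no slide effect, so they cannot check the p values against either. The number of arrays limits the precision.

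Named genes were the 15 largest called differences in each direction with a symbol and no overlap between agonists, called members of 30 gene lists, up to 3 uncalled members of the lipid and PXR lists with the smallest p, and nr1h3. Further genes are named where said. Not every gene that this rule selects is reported here. Members and lists were chosen with earlier results of these data known.

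T0901317 and GW3965 arrays of equal replicate number had correlated deviations from their group means (r 0.158, 0.375 and 0.574 for numbers 1, 3 and 4). The main fit has no block, so its SE and p values treat the arrays as unpaired. Fits with the replicate number as a block were run only as alternatives. What a number stands for is not given in the labels, and T0901317 replicate 1 correlated more with GW3965 replicate 2 (0.245). Blocked values over 11 or 7 arrays are given where they change a call. Alternatives were normexp background correction (offset 50), quantile and bright-median scaling, other filters, other probe rules, the left-out array, 7 arrays only, blocks, a trended robust variance, stricter thresholds and leaving out arrays. Normexp used median spot and local background signals, and its offset shrinks differences of dim genes by construction. A slide block could not be fitted, since each of the 3 slides holds 1 group.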

Additional observations from a re-analysis of the deposited data

Results flagged for a closer look

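Within the 4 GW3965 arrays, 1 array stood apart from the other 3 for 4 of the 72 named genes, with a gap to its neighbour that took up more of the whole range than Dixon's test at 95% allows for 4 values. The ratio of gap to range was 0.883 for crygs3 and 0.879 for cyp51, both at replicate 2, and 0.890 for apoa4a and 0.886 for hsd3b7, both at replicate 4. For cyp51 that array read -2.01 and the others -1.25 to -1.34. For crygs3 it read -1.17 and the others -1.47 to -1.51. Chance flags about 1 in 20 groups.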

How the results depend on the processing

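Of 50 called named genes, 25 kept call and sign in all 24 alternative fits and 49 kept the sign. The number called was 601 at an adjusted p under 0.01 and 357 with a 2-fold minimum. Positive differences made up 49.7% of all genes tested in the main fit. That share was 41.5% after quantile normalization (median -0.029), 39.4% with bright-median scaling (-0.041) and 51.8% after normexp correction (0.0046). Counts of positive members and small list medians depend on this choice. Lower calls numbered 65 after quantile normalization, 45 with bright-median scaling, 53 with the replicate block and 55 with the block on 7 arrays, beside 28. The cause was not tested. Leaving out arrays gave 591 to 963 calls, 576 to 923 higher and 12 to 40 lower. With the replicate block, 871 of the 946 calls remained, 26 of the 28 lower ones among them; of the called named genes only spi1b lost its call, and cyp2k19 gained one. Values that changed sign were nr1h3 with bright-median scaling (-0.034), apoeb as the mean over probes (0.083) and rxrab with T0901317 replicate 2 put back (0.062). Leaving out arrays, nr1h3 ran from -0.041 to 0.069 and pkp2 from -0.19 to 2.76, the latter because its other probe became the brightest. The differences of dim genes have the least signal over background. After normexp correction 685 genes were called, 661 higher and 24 lower. Differences of eif2ak2 (0.71), lingo4a (0.84), eef1a1l3 (1.00), vtg5 (0.75), zgc:114123 (1.203), si:dkey-239i20.4 (1.28), hbba2 (0.45), tfr1a (0.22) and ugt5a2 (-0.30) shrank by more than 1.5 times. So did those of guca1ab.1 (0.15), cbln8 (-0.55), ugt2a2 (0.32), jac9 (1.15), jac8 (1.02), crygs2 (0.43) and angpt2b (1.68). A slide block was not run.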
